A study of Mus musculus with 6 samples.

Results

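The PPAR receptors are nuclear receptors that bind fatty acids and their derivatives. The genes described here were a fixed set of 10, taken by gene symbol from a table of gene expression: the 3 receptors *Ppara*, *Ppard* and *Pparg*, the partner receptors *Rxra* and *Rxrb*, the coactivators *Ppargc1a* and *Ppargc1b*, and the target genes *Ucp2*, *Pdk4* and *Angptl4*. Of these 10 genes, 8 had a value, among 20409 gene symbols in all, and *Ppara* and *Ppargc1a* were not analysed here. All 8 were among the 12837 genes that entered the test, those whose mean over the libraries reached 1 CPM (reads of a gene scaled to a common library size).

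RNA-Seq was done on mouse lung endothelial cells (LECs) grown in culture without treatment, with 3 libraries from control cells (*Atgl* fl/fl) and 3 from *Atgl* ECKO cells, in which a *Cdh5*-Cre transgene, active in vascular endothelium, deletes the floxed *Atgl* gene. LECs of both genotypes had been selected with antibody to CD31, immortalized with the middle T antigen and kept in EGM-2 medium with serum. The labels give each library a genotype and a replicate number, but not the age of the mice, the number of animals, nor whether cultures were grown apart for the libraries of 1 genotype. The p-values below therefore measure only the spread between these libraries, which may be technical.

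A PPAR pairs with a retinoid X receptor (RXR), and the pair binds a direct repeat of the hexamer AGGTCA near its target genes, where it recruits coactivators such as those of the PGC-1 family. PPARα and PPARδ drive fatty acid oxidation genes in many tissues, whereas PPARγ is best known as the regulator of adipocyte formation and, in endothelium, of fatty acid handling genes. ATGL, encoded by *Pnpla2*, makes the first cut in stored triglyceride, and the fatty acids it releases can reach PPARs as ligands or as precursors of ligands. The comparison of genotypes asks how the receptors, their partners and their targets stand where *Atgl* is deleted. The supply of fatty acids or ligands was not measured in these libraries.

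*Pparg* and the targets *Ucp2* and *Angptl4* were lower in *Atgl* ECKO than in control LECs, as were both RXR genes by smaller amounts, and the target *Pdk4* was higher. Of the 8 members tested, 1 was higher and 5 were lower at an adjusted p under 0.05 in limma, whereas 34.2% of all tested genes were higher and 36.2% were lower at the same threshold. The groups did not overlap for 7 of the 8 members, against 73.1% of all tested genes. Each member is therefore given with the size of its change and, here, the share of all tested genes with a larger change in either direction. This share was 2.42% for *Pparg*, 6.26% for *Ucp2*, 23.7% for *Angptl4* and 30.2% for *Rxra*. It was 45.7% for *Pdk4*, 49.9% for *Rxrb*, 65.8% for *Ppargc1b* and 77.9% for *Ppard*. Over the 8 members the median log2 fold change was −0.28, whereas over all tested genes it was −0.01. Values below are CPM of each library in the order of replicates 1 to 3, and a log2 fold change is *Atgl* ECKO minus control on the log2(CPM + 1) scale, which understates the change of low genes.

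**Figure D1:**
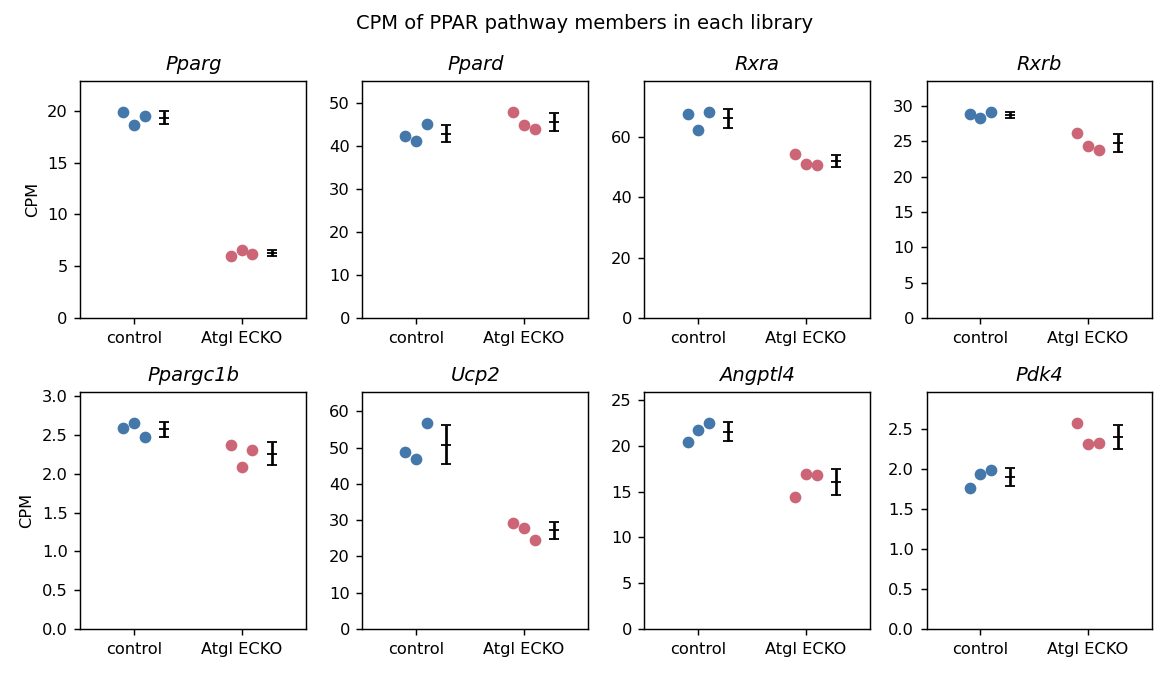
CPM of each of the 8 members in every library, control in blue and *Atgl* ECKO in red, with the mean and SD of the 3 libraries as a black bar beside the points; every axis starts at 0. *Pparg* and *Ucp2* separate most clearly, and *Ppard* is the member whose groups overlap.

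The deleted gene was checked first. *Pnpla2* was at 27.6, 26.3 and 30.1 CPM in control libraries and at 9.97, 9.11 and 9.13 CPM in *Atgl* ECKO libraries, so that each library matched its label, with signal left in the *Atgl* ECKO libraries. The difference was −1.48 on the log2 scale (SE 0.05, adjusted p = 1.84e-12 in limma), and the exact two-sided permutation test gave p = 0.1, the smallest that 3 against 3 allows. The Y-linked *Ddx3y* was at 94.0 to 98.1 CPM in control libraries and 0.924 to 1.23 CPM in *Atgl* ECKO libraries, *Eif2s3y*, *Kdm5d* and *Uty* were also lower (log2 fold change −4.49, −4.37 and −4.17), and *Xist* was at 0.0540 CPM or less in all 6. The study's methods say that male mice were used throughout. The genotype and this difference in Y-linked expression cannot be told apart in any result below.

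Among the receptors, *Pparg* had the largest change of all members. *Pparg* was at 19.9, 18.6 and 19.5 CPM in control LECs and at 5.97, 6.60 and 6.24 CPM in *Atgl* ECKO LECs. All control libraries lay far above all *Atgl* ECKO libraries, and the spread within each genotype was small beside the gap. The mean fell from 19.3 ± 0.633 to 6.27 ± 0.314 CPM (SD, n = 3 each), which left 32.4% of the control level. On the log2 scale *Pparg* changed by −1.49, with a 95% confidence interval of −1.60 to −1.37 (adjusted p = 1.08e-12 in limma), and 1.54% of all tested genes had a lower one. Under 16 other processing settings the log2 fold change of *Pparg* ranged from −1.61 to −1.27 and passed the threshold in all 16.

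*Ppard*, the receptor expressed in most tissues, showed no such change. It was at 42.4, 41.2 and 45.0 CPM in control LECs and at 47.9, 44.8 and 43.8 CPM in *Atgl* ECKO LECs. The groups overlapped, since the highest control library lay above the 2 lower *Atgl* ECKO libraries. *Ppard* differed by 0.08 on the log2 scale, and its 95% confidence interval, −0.0062 to 0.17, held 0 (adjusted p = 0.0880 in limma). *Ppard* passed in 4 of 16 other settings, among them quantile normalization (0.11, adjusted p = 0.0198) and the fit without control replicate 3 (0.12, adjusted p = 0.0236).

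The balance of the receptors moved with *Pparg*. The ratio of *Pparg* to *Ppard* CPM within a library, which does not depend on scaling between libraries, was 0.469, 0.453 and 0.433 in control and 0.125, 0.147 and 0.142 in *Atgl* ECKO LECs. The ratio was thus lower in every *Atgl* ECKO library than in any control library, with a difference of −1.71 on the log2 scale (exact two-sided permutation p = 0.1, the smallest possible, and 0.1 after Benjamini-Hochberg adjustment over the 2 ratios computed). The control group had a mean ratio of 0.452 ± 0.0180 and the *Atgl* ECKO group one of 0.138 ± 0.0119 (SD, n = 3 each).

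RefSeq places the start of *Pparg* transcripts at 3 sites, and the table holds 1 value for the whole gene, so the change could not be split by start. The stretches before the starts are given, in their order along the gene, because they show how different the sequences are that stand at the head of the member with the largest change (RefSeq, GRCm38.p6, 5′ to 3′, forward strand, bases outside annotated exons). The GC content of the 250 bases before the start was 82.4% at the first start, 63.6% at the second and 40.8% at the third. The stretches shown are chr6:115360894-115360950, chr6:115362099-115362291 and chr6:115421816-115422065.
*Pparg*, start 1: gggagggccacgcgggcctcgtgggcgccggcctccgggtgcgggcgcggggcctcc
*Pparg*, start 2: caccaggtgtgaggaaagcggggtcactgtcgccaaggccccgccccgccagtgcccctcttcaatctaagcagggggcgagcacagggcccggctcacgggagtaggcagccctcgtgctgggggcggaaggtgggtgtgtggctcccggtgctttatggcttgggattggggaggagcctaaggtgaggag
*Pparg*, start 3: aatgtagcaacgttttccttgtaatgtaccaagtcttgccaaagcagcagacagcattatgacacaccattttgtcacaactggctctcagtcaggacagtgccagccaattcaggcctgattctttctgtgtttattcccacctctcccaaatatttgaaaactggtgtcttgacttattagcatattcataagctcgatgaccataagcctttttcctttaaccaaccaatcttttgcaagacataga
No base is in capitals because none of these stretches held the hexamer AGGTCA on either strand, although the windows of the first and the second start each held it once nearer to the start, in annotated exons that are not shown.

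The RXR genes encode the obligate partners of PPARs, and both were lower in *Atgl* ECKO LECs. *Rxra* was at 67.6, 62.3 and 68.2 CPM in control and at 54.2, 50.9 and 50.6 CPM in *Atgl* ECKO LECs, without overlap. This was a log2 fold change of −0.34 (95% confidence interval from −0.43 to −0.26, adjusted p = 1.85e-06 in limma), and the *Atgl* ECKO mean was 78.6% of the control mean. *Rxra* lies on chromosome 2, where the median over 1026 tested genes was −0.21, and once chromosome medians were subtracted *Rxra* stood at −0.13 (adjusted p = 0.0122 in limma). Medians of other chromosomes reached 0.42 on chromosome 14. The part of such chromosome-wide differences in the results was not tested.

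*Rxrb* was at 28.9, 28.3 and 29.2 CPM in control LECs and at 26.2, 24.3 and 23.8 CPM in *Atgl* ECKO LECs. The groups did not overlap, although the gap was narrow. *Rxrb* changed by −0.21 on the log2 scale (95% confidence interval from −0.30 to −0.12, adjusted p = 0.000433 in limma), and 49.9% of all tested genes had a larger change in either direction. Exons of *Slc39a7* on the opposite strand lie in the window before the first *Rxrb* start, and no source used here says whether the counting used strand. The ratio of *Rxra* to *Rxrb* CPM was 2.34, 2.20 and 2.34 in control and 2.07, 2.09 and 2.13 in *Atgl* ECKO libraries. It was lower in every *Atgl* ECKO library, with a difference of −0.13 on the log2 scale (2.29 ± 0.0804 against 2.10 ± 0.0292, SD, n = 3 each), with exact two-sided permutation p = 0.1 before and after adjustment over the 2 ratios. The direction turned once chromosome medians were subtracted, when the log2 fold change was −0.13 for *Rxra* and −0.19 for *Rxrb*.

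**Figure D2:**
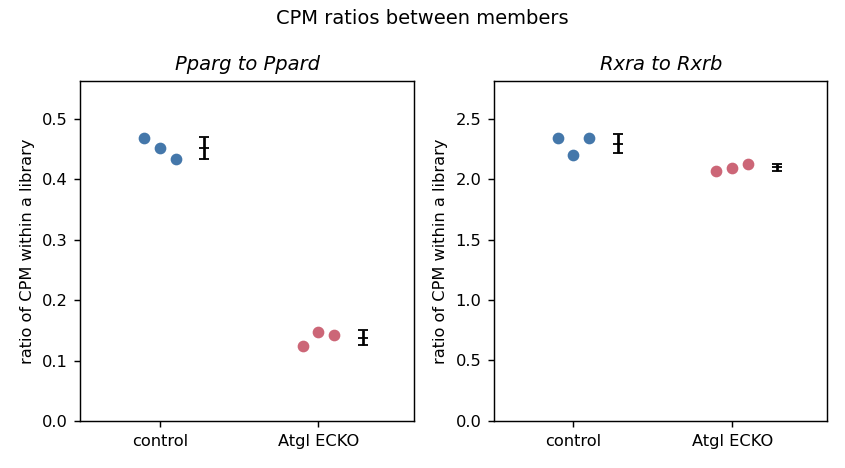
Ratio of CPM within each library for *Pparg* to *Ppard* (left) and *Rxra* to *Rxrb* (right), control in blue and *Atgl* ECKO in red, with mean and SD of 3 libraries as black bars and axes from 0. The *Pparg* to *Ppard* ratio falls from 0.452 to 0.138, whereas the *Rxra* to *Rxrb* ratio moves only from 2.29 to 2.10.

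The starts of the members were searched for AGGTCA, the core hexamer of the PPAR and RXR binding repeat. Both strands were searched in windows from 250 bases before to 50 bases after each RefSeq start. This was done for 8 of the 10 members, in 12 windows, and not for *Angptl4* and *Ppargc1b*. *Rxra* and *Pparg* held the hexamer in 3 of the 12 windows, beside 16.3% of all 32851 mouse windows. By gene this was 2 of the 8 members searched, beside 4900 of 27025 genes. Counts this small do not set the members apart from other genes. The full repeat AGGTCANAGGTCA was in 0 of the 12 and in 13 of 32851. The second *Rxra* start held the hexamer at 2 places, in capitals below, on opposite strands, with first bases 87 and 48 bases before the start (RefSeq, GRCm38.p6, chr2:27709042-27709291, forward strand).
*Rxra*, second start: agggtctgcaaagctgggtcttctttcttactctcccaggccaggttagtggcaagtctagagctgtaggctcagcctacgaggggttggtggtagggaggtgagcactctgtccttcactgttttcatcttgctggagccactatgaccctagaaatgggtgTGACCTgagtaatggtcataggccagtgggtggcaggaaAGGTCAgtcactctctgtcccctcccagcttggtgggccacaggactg
A match of letters is a description of the sequence and not a measured binding site.

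Of the coactivators, *Ppargc1b* encodes PGC-1β, which binds PPARs and other nuclear receptors and promotes mitochondrial gene expression. It was at 2.59, 2.66 and 2.48 CPM in control and at 2.37, 2.09 and 2.31 CPM in *Atgl* ECKO LECs, at most 179 reads a library. The *Atgl* ECKO libraries were all lower, but the difference did not pass the test (log2 fold change −0.14, 95% confidence interval −0.29 to 0.02, adjusted p = 0.108 in limma). It passed under 1 of 15 other settings, limma without the mean-variance trend (adjusted p = 0.0241). Once chromosome medians were subtracted, it stood at −0.023, chromosome 18 having a median of −0.11. Since *Ppargc1a* was not analysed here, no ratio between the coactivators was formed.

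*Ucp2*, *Angptl4* and *Pdk4* are targets that PPARs induce in several tissues, and they did not move together. *Ucp2* encodes a carrier of the inner mitochondrial membrane from the uncoupling protein family. It was at 48.7, 46.8 and 56.9 CPM in control and at 29.1, 27.95 and 24.6 CPM in *Atgl* ECKO LECs. Control replicate 3 was the highest library and *Atgl* ECKO replicate 3 the lowest, and the groups stood well apart. *Ucp2* changed by −0.87 on the log2 scale (95% confidence interval from −1.01 to −0.73, adjusted p = 9.67e-09 in limma), and the mean fell by 46.4%, from 50.8 ± 5.34 to 27.2 ± 2.32 CPM (SD, n = 3 each). Across all 16 other settings it ranged from −0.93 to −0.79.

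*Angptl4* encodes a secreted inhibitor of lipoprotein lipase. It was at 20.4, 21.7 and 22.5 CPM in control and at 14.4, 16.9 and 16.8 CPM in *Atgl* ECKO LECs, without overlap. *Atgl* ECKO replicate 1 was the lowest library. The change of *Angptl4* on the log2 scale was −0.41 (95% confidence interval from −0.53 to −0.28, adjusted p = 1.60e-05 in limma), and 10.8% of all tested genes had a lower one.

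*Pdk4* encodes a kinase that switches off pyruvate dehydrogenase and so spares glucose when fatty acids are burned. It was the member with the fewest reads, about 108 to 163 a library. *Pdk4* was at 1.77, 1.94 and 1.99 CPM in control and at 2.58, 2.32 and 2.32 CPM in *Atgl* ECKO LECs. Every *Atgl* ECKO library was above every control library, opposite to *Ucp2* and *Angptl4*. The change of *Pdk4* on the log2 scale was 0.23 (95% confidence interval from 0.072 to 0.39, adjusted p = 0.0120 in limma), and 45.7% of all tested genes had a larger change in either direction. The call rested on the first replicates: the adjusted p was 0.0522 without control replicate 1 and 0.0539 without *Atgl* ECKO replicate 1.

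The sequences before the starts of the target with the largest fall and of the target that rose are given side by side because the genes moved in opposite directions (RefSeq, GRCm38.p6, 5′ to 3′, bases outside annotated exons). *Ucp2* is at chr7:100493108-100493336 on the forward strand and *Pdk4* at chr6:5496310-5496528 on the reverse strand. *Angptl4* is named only.
*Ucp2*: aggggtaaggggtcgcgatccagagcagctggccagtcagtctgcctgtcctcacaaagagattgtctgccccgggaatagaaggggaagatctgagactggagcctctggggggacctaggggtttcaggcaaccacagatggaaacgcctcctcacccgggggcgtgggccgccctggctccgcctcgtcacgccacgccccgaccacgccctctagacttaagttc
*Pdk4*: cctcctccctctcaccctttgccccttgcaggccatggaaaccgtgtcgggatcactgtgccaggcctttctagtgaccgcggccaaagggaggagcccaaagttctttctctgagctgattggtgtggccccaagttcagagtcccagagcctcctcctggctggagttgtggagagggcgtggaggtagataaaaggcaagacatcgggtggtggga
Neither held AGGTCA on either strand, so none of their bases is in capitals, and nothing about binding follows from that. The GC content of the 250 bases before the start was 63.6% for *Ucp2* and 58.8% for *Pdk4*.

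**Figure D3:**
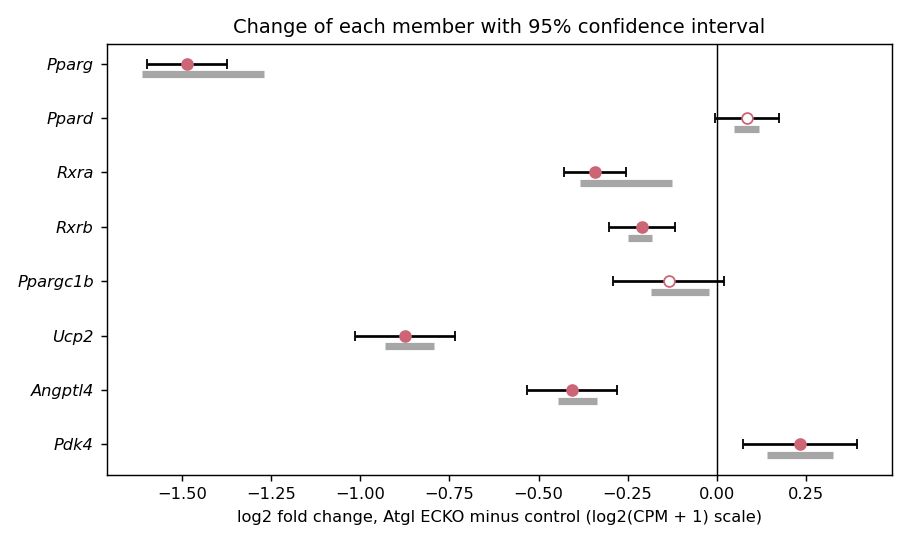
Log2 fold change of each member (*Atgl* ECKO minus control, log2(CPM + 1) scale) with its 95% confidence interval as a black line; filled points have an adjusted p under 0.05 in limma, open points do not, and grey bars span the values under the other processing settings. *Pparg* at −1.49 and *Ucp2* at −0.87 lie farthest from 0, *Pdk4* at 0.23 is the filled point to the right, and the grey bar of *Rxra* reaches −0.13.

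Levels of different genes were compared per kilobase (kb) of exon. In control LECs *Rxra* was the highest member at 12.1 CPM per kb, followed by *Ucp2* at 7.27 ± 0.763 and *Rxrb* at 7.25 ± 0.107, whose libraries overlapped. *Pparg* at 6.55 ± 0.215, *Angptl4* at 6.09 ± 0.304 and *Ppard* at 5.70 ± 0.260 CPM per kb came next, with overlap between each neighbouring pair. *Ppargc1b* at 0.646 and *Pdk4* at 0.541 CPM per kb were far below all others. In *Atgl* ECKO LECs *Pparg* stood at 2.12 CPM per kb, below *Ppard* at 6.05, *Angptl4* at 4.53 and *Ucp2* at 3.90, while *Rxra* was at 9.50 and *Rxrb* at 6.23.

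The lengths decide part of this order, since *Ppard* has 7.51 kb of exon in all but 3.28 kb in its longest coding transcript. With the longest coding transcript, a choice made after seeing the data, *Ppard* was at 13.1 and *Pparg* at 9.10 CPM per kb in control LECs, so that their order was the opposite one, and in *Atgl* ECKO LECs *Ppard* at 13.9 stood above *Rxra* at 10.6, the highest member per kb of exon, in every library. Under both lengths, *Pparg* was below *Ppard* in *Atgl* ECKO LECs. Under both lengths also, *Ppargc1b* lay above *Pdk4* in every control library and below it in every *Atgl* ECKO library, at 0.566 against 0.686 CPM per kb of exon in the latter.

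Other genes of the pathway were read from lists chosen by function, and described by counts and medians beside the shares over all genes given above. RXR also pairs with other nuclear receptors. Among 9 tested partner receptors there were 6 higher and 2 lower calls and 1 gene without a call, and their median change was 0.20 on the log2 scale. *Vdr*, the vitamin D receptor, was at 11.9, 10.97 and 11.8 CPM in control and at 1.54, 1.70 and 1.44 CPM in *Atgl* ECKO LECs (log2 fold change −2.30, adjusted p = 8.89e-14 in limma). *Thrb*, a thyroid hormone receptor, went the other way, from 14.7, 15.9 and 16.3 to 39.1, 39.2 and 39.99 CPM (1.28, adjusted p = 7.11e-13). Both changed far beyond the spread of their libraries. The median of chromosome 14, which holds *Thrb*, was 0.42. The retinoic acid receptor gene *Rarg* rose by 0.29 and *Nr1h2*, which encodes the oxysterol receptor LXRβ, by 0.26 on the log2 scale (adjusted p = 4.47e-05 and 0.000191 in limma), while the orphan receptor gene *Nr4a2* was at −0.04 (adjusted p = 0.670).

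Coregulators other than the PGC-1 members bridge nuclear receptors to chromatin and the transcription machinery. The 18 tested genes gave 6 higher and 8 lower calls, with 4 uncalled and a median change of −0.078 on the log2 scale. *Prdm16*, a coregulator known from brown fat and also active in arterial endothelium, was at 21.0, 20.5 and 20.0 CPM in control LECs but at 0.0159, 0.0487 and 0 CPM in *Atgl* ECKO LECs (log2 fold change −4.40, adjusted p = 3.77e-17 in limma, a size set by the 1 CPM added). The gene was thus at or near 0 in all libraries of 1 genotype. *Lpin1*, which encodes a phosphatidate phosphatase that also coactivates PPARα, rose by 0.90, and the corepressor *Nrip1* rose by 0.78 on the log2 scale (adjusted p = 9.06e-11 and 2.29e-10 in limma). The medians of their chromosomes were 0.36 and 0.25. *Pprc1*, a relative of PGC-1, was higher by 0.40 (adjusted p = 1.46e-08), which was the median of its chromosome 19, and it stood at 0.00013 once chromosome medians were subtracted (adjusted p = 0.999). The coactivator *Ncoa2* at −0.09, the acetyltransferase gene *Ep300* at 0.00 and *Tbl1x*, of the corepressor complex, at 0.07 did not pass (adjusted p = 0.0960, 0.923 and 0.0561). With chromosome medians removed the list had 3 higher and 5 lower.

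PGC-1 coactivators work through further factors that set mitochondrial gene expression. The 8 tested genes gave 3 higher calls and 1 lower call, with 4 uncalled and a median change of 0.082 on the log2 scale. The higher ones were *Esrra*, which encodes the estrogen-related receptor ERRα (0.26, adjusted p = 0.000223 in limma), and the mitochondrial factors *Tfam* (0.23, 0.000377) and *Tfb1m* (0.26, 0.00589). *Mef2c*, a MADS box factor, was at −0.13 (adjusted p = 0.0111). These were small changes. With chromosome medians removed, *Esrra* turned to −0.14, *Tfam* stood at 0.043 and *Mef2c* at −0.022 without a call (adjusted p = 0.435 and 0.661), and the list had 1 higher and 2 lower. The call of *Mef2c* was also lost without *Atgl* ECKO replicate 3 (−0.086, adjusted p = 0.0715). The nuclear respiratory factor genes *Nrf1* at 0.01 and *Gabpa* at 0.08 and the mitochondrial transcription factor gene *Tfb2m* at −0.02 did not pass.

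Among further PPAR target genes, the largest changes were those of *Lpl*, *Slc27a1* and *Cd36*, which act in the supply and uptake of fatty acids. The list had 31 tested genes, with 9 higher and 17 lower calls, 5 uncalled and a median change of −0.12 on the log2 scale, and 9 others lay below the filter. *Lpl*, lipoprotein lipase, was at 28.6, 29.6 and 28.5 CPM in control and at 1.46, 1.62 and 1.38 CPM in *Atgl* ECKO LECs (log2 fold change −3.59, adjusted p = 1.12e-16 in limma). *Cd36*, the fatty acid translocase, was at 2.49, 2.48 and 2.72 against 0.0793, 0.0163 and 0.107 CPM (−1.74, adjusted p = 4.74e-11), so that the *Atgl* ECKO libraries were near 0. *Slc27a1*, which encodes the fatty acid transport protein FATP1, was at 11.04, 11.2 and 11.6 against 85.6, 76.2 and 76.6 CPM (2.71, adjusted p = 2.03e-16). These uptake genes thus moved in both directions, each without overlap. *Slc25a20* at −0.08, *Acadvl* at 0.00 and *Hadhb* at 0.10, genes of mitochondrial fatty acid import and oxidation, did not pass (adjusted p = 0.150, 0.997 and 0.0678). *Hadhb* passed in several other settings, among them the removal of chromosome medians (0.18, adjusted p = 0.00346 in limma). Other genes of fatty acid import and oxidation did pass. Called lower were, among others, *Cpt1a* (−0.31), *Cpt2* (−0.36), *Acadl* (−0.24), *Acaa2* (−0.48), *Eci2* (−0.58) and *Decr1* (−0.39). Called higher were *Ehhadh* (0.63), *Cpt1b* (0.30) and *Acaa1a* (0.12). The groups overlapped for *Cpt1b* and *Acaa1a*, and both lost their call in several settings, among them limma without the trend (adjusted p = 0.0602 and 0.0921). The medians of the chromosomes of *Ehhadh* and *Cpt1a* were 0.25 and 0.40.

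The relatives of the target members were read in the same way. Of 9 tested genes of mitochondrial carriers close to *Ucp2* and of the kinases and phosphatases of pyruvate dehydrogenase, 3 rose, 2 fell and 4 were uncalled, with a median change of 0.0077 on the log2 scale. The carrier *Slc25a30* and the phosphatase *Pdp2* were higher (log2 fold change 0.49 and 0.39, adjusted p = 1.43e-08 and 9.41e-07 in limma), and the phosphatase *Pdp1* was lower (−0.38, 6.41e-06). Once chromosome medians were subtracted, *Slc25a30*, on chromosome 14, stood at 0.063 and lost its call (adjusted p = 0.169). *Pdk1* was at 43.3, 37.9 and 42.6 CPM in control and at 49.5, 47.9 and 48.6 CPM in *Atgl* ECKO LECs (0.24, adjusted p = 0.000246). *Pdk1*, a kinase with the same substrate as *Pdk4*, was thus higher without overlap, while *Pdk2* at 0.18 and *Pdk3* at −0.12 did not pass (adjusted p = 0.102 and 0.0568). *Slc25a14* was at −0.03 (adjusted p = 0.766).

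The genes around *Angptl4* and lipoprotein lipase had 4 tested members, of which 1 rose, 2 fell and 1 was uncalled, with a median change of −0.60 on the log2 scale. Besides *Lpl*, described above, *Angptl2*, a secreted relative of *Angptl4*, was lower (log2 fold change −1.13, adjusted p = 1.16e-08 in limma). *Gpihbp1*, whose product anchors lipoprotein lipase to capillary endothelium, was higher (0.49, adjusted p = 8.65e-05), so that the anchor and the enzyme moved in opposite directions. *Lmf1*, needed for lipase maturation, was at −0.07 (adjusted p = 0.313).

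**Figure D4:**
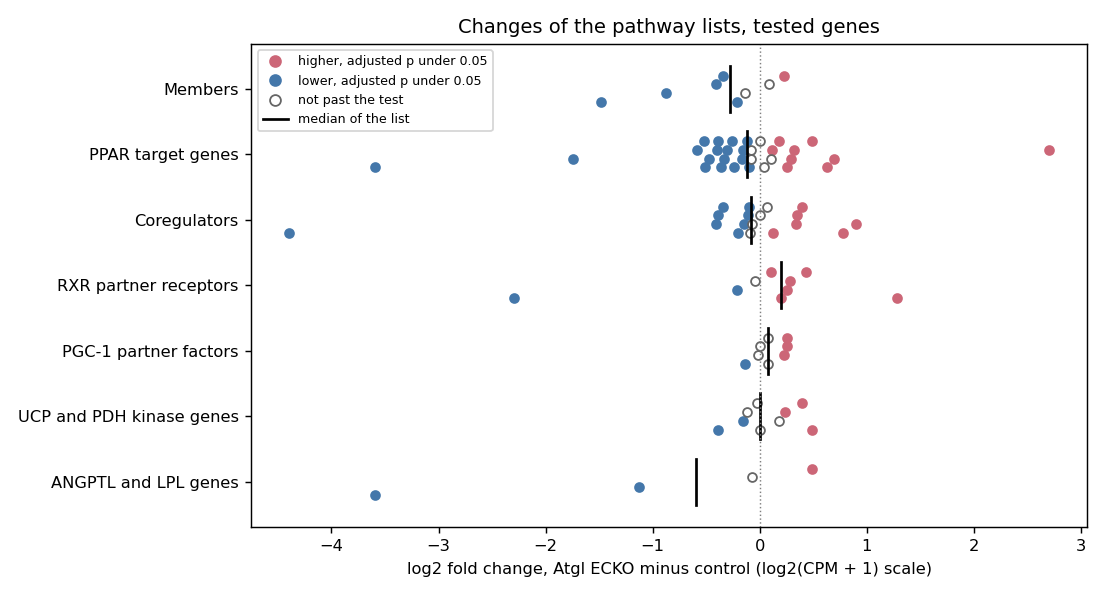
Log2 fold change (*Atgl* ECKO minus control, log2(CPM + 1) scale) of each tested gene in the members and the 6 pathway lists, red for higher and blue for lower at an adjusted p under 0.05 in limma, open for not passed, with a black bar at each list's median. Every list holds genes on both sides of 0, from *Prdm16* at −4.40 among coregulators to *Slc27a1* at 2.71 among PPAR targets.

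All 12 endothelial markers had values in both genotypes, and other markers that moved are given with the members they could touch. The 12 endothelial markers summed to 5740 to 5938 CPM in control and 5670 to 6034 CPM in *Atgl* ECKO libraries, with *Cdh5* and *Pecam1* the highest in both. Single markers moved within this sum, 4 of the 12 being higher and 5 lower at an adjusted p under 0.05 in limma, among them *Vwf* at 38.9% of its control mean (log2 fold change −1.35) and *Cldn5* at 381%, both picked after their values were seen. *Pparg* and *Angptl4* are also adipocyte genes, and 3 of 8 adipocyte markers had a value, summing to 336 to 355 CPM in control and 230 to 251 CPM in *Atgl* ECKO libraries. Nearly all of it was *Fabp4*, which endothelium also expresses, whereas *Adipoq*, which defines adipocytes, was at 0.0476 CPM or less in every library. *Ucp2* is also a macrophage gene, and 7 of 10 macrophage markers had a value, summing to 23.5 to 26.3 against 66.4 to 78.1 CPM. The sum was mostly *Cd68* (log2 fold change 1.77), whereas *Itgam* was at 0.245 CPM or less in every library. Of the 3 macrophage markers tested, *Itgax* was also higher (0.31, adjusted p = 0.00304 in limma) and *Laptm5* did not pass (0.09, adjusted p = 0.356). Below the filter, *Mrc1* was lower without overlap, at a mean of 0.877 against 0.246 CPM. *Itgam* was higher without overlap, and *Csf1r* and *Lyz2* overlapped between the genotypes. In bulk samples fewer cells of a type and less RNA per cell cannot be told apart.

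The lung epithelial list had 6 of 10 markers with a value and summed to 18.03 to 19.0 CPM in control and 42.2 to 44.6 CPM in *Atgl* ECKO libraries, mostly *Krt18*, with *Epcam* at 0.0649 CPM or less. The 10 fibroblast and smooth muscle markers summed to 311 to 354 and 364 to 435 CPM, mostly *Tagln*, which was higher, and *Acta2*, which was lower (log2 fold change 0.77 and −0.53, adjusted p = 8.85e-09 and 4.81e-07 in limma), with *Dcn* at 0.0634 CPM or less. Of the other tested markers of this list, *Cnn1* was higher (0.73, adjusted p = 1.29e-07 in limma) and *Myh11* did not pass (0.18, adjusted p = 0.0616). Below the filter, the collagen genes *Col1a1*, *Col1a2* and *Col3a1* were lower without overlap, at 29.99%, 51.9% and 8.07% of their control means. *Pdgfrb* was higher without overlap, and *Pdgfra* overlapped between the genotypes. The part of the other markers in the results was not tested.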

How the data were processed

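The data were 6 RNA-Seq libraries of immortalized mouse LECs, 3 control and 3 *Atgl* ECKO. According to the methods, the authors depleted ribosomal RNA from total RNA, sequenced paired ends, aligned reads with STAR and quantified genes with Partek E/M. The methods and the labels name a small RNA library kit. The processing notes name hg19, a human build, although the table carries mouse gene symbols, and no source used here gives versions of STAR or Partek. The deposited table holds CPM per gene, normalized by the authors in Partek Flow with an offset of 0.0001 CPM, which was subtracted. A second table of z-scores per gene was not used. Of 20430 lines, 21 with a date or number as symbol were left out, as was 1 stray cell. CPM summed to 816086 to 821591 per library over the genes listed. From the steps between low values, 1 CPM stood for 55.6 to 69.0 reads, but only 68.2% to 69.3% of values were whole reads (tolerance 0.02 reads), so no count test was run.

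Values were tested as log2(CPM + 1) with limma 3.58.1 in R 4.3.3 (empirical Bayes with a mean-variance trend, two-sided, Benjamini-Hochberg over the 12837 genes whose mean reached 1 CPM, threshold 0.05). Confidence intervals cover 95%. Ratios were tested by an exact permutation test over 20 assignments. CPM per kb used exon lengths of the GENCODE annotation of GRCm38, and promoters came from RefSeq. Code was tested on simulated data.

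The named genes were the 10 members, *Pnpla2*, sex-linked genes, the 4 smallest adjusted p-values of each list with up to 3 genes that did not pass, in list order, and for each marker list leading markers and defining ones near 0. A gene already described under another list was named there. Genes of fatty acid import and oxidation that passed, and further fibroblast and smooth muscle markers, were added after their values were seen. Of up to 3 leading markers of a list, those that made up most of its sum are named, and *Cebpa* besides. Of the genes this rule selects, 1 is not reported here. The members and lists were chosen with earlier results of these data known. Alternatives were other pseudocounts, filters, scalings and variance models, a replicate block, removal of chromosome medians and leaving out each library.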

Additional observations from a re-analysis of the deposited data

How the results depend on the processing

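Under 16 alternatives, 135 of 142 values of the members and *Pnpla2* kept their direction and side of the threshold, 2 lost the threshold, 5 gained it and 0 reversed. *Ppard* passed with median ratio scaling (0.094, adjusted p = 0.0360), quantile normalization (0.11, adjusted p = 0.0198) and chromosome medians removed (0.10, adjusted p = 0.0420), so that 2 members were higher in each. When genes needed a mean of 5 CPM, 0 were higher because *Pdk4* was below it. *Ppargc1b* passed in limma without the trend (−0.14, adjusted p = 0.0241). Leaving out single libraries gave 0 to 2 members higher, 0.048 to 0.12 for *Ppard* and 0.20 to 0.26 for *Pdk4*. With chromosome medians removed, *Esrra* (−0.14), *Gabpa* (−0.16), *Ncoa1* (−0.016) and *Sirt1* (−0.062) changed sign. Of these, *Esrra* went from a higher to a lower call (adjusted p = 0.0259 in limma). *Gabpa*, without a call in the main fit, was called lower (adjusted p = 0.00267). *Ncoa1* and *Sirt1* lost their calls (adjusted p = 0.796 and 0.299). The cause was not tested. Of 1221 values of list genes, 1138 were unchanged in call, 58 lost and 21 gained the threshold, and 4, those just named, changed sign. A change of sign in a gene called in neither fit was counted as unchanged.

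With the replicate number as a block, 4367 genes were higher and 4602 lower, with 1 and 5 of the members, and the block changed no call of a member. Deviations of same-numbered libraries from the group means had correlations of 0.09, 0.09 and −0.15, and other pairs ranged from −0.30 to 0.23. With 3 libraries per genotype, these values cannot settle whether same-numbered libraries shared more than a number. With the longest coding transcript, CPM per kb in control and *Atgl* ECKO LECs were 13.5 and 10.6 for *Rxra*, 13.1 and 13.9 for *Ppard*, 12.7 and 6.83 for *Ucp2*, 10.96 and 9.43 for *Rxrb*, 9.10 and 2.95 for *Pparg*, 6.51 and 4.85 for *Angptl4*, and 0.705 and 0.618 for *Ppargc1b*. This alternative was chosen after seeing the data. With 3 libraries per genotype, depth limits *Pdk4* and *Ppargc1b* most, with at most 163 and 179 reads.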
